A study of Mus musculus with 2 samples.

Results

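The 10 genes described here serve the uptake, binding and activation of fatty acids: *Cd36*, *Fabp5*, the long-chain acyl-CoA synthetases *Acsl1*, *Acsl3*, *Acsl4* and *Acsl5*, the bubblegum-type synthetase *Acsbg1*, and the fatty acid transport proteins *Slc27a1*, *Slc27a3* and *Slc27a4*. They were picked by name from the 32285 genes counted, with earlier results of these data known, and *Acsbg1* was picked because it was high in skin sebocytes (sSEB) and low in preputial gland sebocytes (pSEB), so that contrast is given as a description. Fatty acids enter a cell by diffusion or with the help of the membrane protein CD36, are carried in the cytosol by fatty acid binding proteins such as FABP5, and are of no use for lipid synthesis or oxidation until an acyl-CoA synthetase joins them to coenzyme A. The transport proteins of the SLC27 family carry synthetase activity themselves, and the many synthetases differ in the chain length they prefer and in the membrane where they sit. Sebocytes (SEB) are the lipid-storing cells of the sebaceous gland (SG), which fill with wax esters and triglycerides and then burst to release sebum, and the preputial gland (PG) is a large SG-like gland beside the genitals of rodents.

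Back skin biopsies and whole PGs came from 3 male wild-type C57BL/6 mice of 52 weeks, and no group carried a transgene or a treatment. The tissues were dissociated into single cells and read by 3′ single-cell RNA sequencing, with 1 library for skin and 1 for PG. A unique molecular identifier (UMI) marks 1 captured transcript. Since each tissue had 1 library, in which the mice cannot be told apart, no difference between tissues could be tested, and every interval given here is a 95% interval that covers counting error only.

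The skin library held 37675226 UMIs and the PG library 26288071. A barcode was kept as a cell from 500 detected genes and 1000 UMIs upwards if mitochondrial UMIs made up no more than 10%, which left 8899 cells of skin (median 2386 UMIs) and 4699 of PG (median 2729 UMIs), with 0 barcodes shared. The labels give the same kit for both libraries, yet the barcode lists held 6794880 entries for skin and 737280 for PG, of which 77142 were the same, and what this does to the levels was not tested. A cell was placed in a class if at least 3 markers of that class had a UMI and together held at least 0.2% of its UMIs, and cells passing the gates of classes that exclude each other, 422 in skin and 217 in PG, were left out. None of the 10 genes was a gate marker.

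This gave 40 sSEB with 174537 UMIs and 854 pSEB with 4389109 UMIs, and all 9 SEB markers were detected in both. The SEB markers summed to 8955 CPM (UMIs of a class scaled to a total of 1000000) in sSEB and to 10792 in pSEB, and they held a median of 0.390% and 0.738% of the UMIs of a cell, against 0.000828% and 0.0278% that free RNA would add. Of the sSEB 19 lay just inside the gate and 58 cells just outside, compared with 432 and 482 for pSEB. Clusters of the same cells were also made and named with the same marker lists. They put 25 of the 40 sSEB into the skin SEB cluster but 167 of the 854 pSEB into the PG SEB clusters, 124 of them late cells. The PG clusters, of 183 cells, were thus mostly a part of the gated pSEB, and a largely late one. Of the 25 sSEB in the skin cluster 11 were late, 9 early and 5 neither. Ratios between clusters therefore set unlike mixes of stages side by side, and they are given where they differ from those of the gates. The inner root sheath (IRS) markers, which belong to the hair follicle (HF), summed to 2636 CPM in sSEB and 3.87 in pSEB, and without the 1 sSEB in which they held 6.60% of the UMIs this level was 190 CPM. Markers of other epithelial classes were also higher in sSEB than in pSEB, at 527 against 43.1 CPM for suprabasal KC, 1644 against 637 for the upper follicle and 115 against 0 for hair matrix, and their part in the tissue contrast was not tested. Among non-epithelial classes, macrophage or dendritic cell markers summed to 97.4 CPM in sSEB, skeletal muscle markers to 91.7 and fibroblast markers to 85.9. Contractile cell and melanocyte markers were at 17.2 CPM each in sSEB, and endothelial markers at 11.5. T cell, adipocyte, mast cell and Schwann cell markers were at 0 in sSEB.

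The promoters of 4 genes are printed because these genes set the tissues or the stages of SEB apart. *Acsbg1* was among the genes higher in sSEB, *Acsl1* among those higher in pSEB, and *Acsl5* and *Slc27a4* were higher in late SEB of both tissues. The stretches are the 250 bases before a RefSeq start on GRCm38.p6, 5′ to 3′ on the strand of the gene, with capitals on the matches of the motifs searched on both strands. These were the CCAAT box (CCAAT), the TATA box (TATAAA), the Sp1 box (GGGCGG), the E-box (CACGTG), the nuclear receptor half-site (AGGTCA) and the DR1 site, which is a pair of such half-sites spaced by 1 base and overlaps that motif.
*Acsbg1*, chr9:54661886-54662135, minus strand: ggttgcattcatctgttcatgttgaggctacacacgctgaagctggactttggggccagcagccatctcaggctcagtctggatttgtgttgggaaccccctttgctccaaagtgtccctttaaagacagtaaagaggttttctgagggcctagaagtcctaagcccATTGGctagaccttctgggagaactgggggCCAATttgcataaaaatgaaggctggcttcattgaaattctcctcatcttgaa
*Acsl1*, chr8:46470787-46471036, plus strand: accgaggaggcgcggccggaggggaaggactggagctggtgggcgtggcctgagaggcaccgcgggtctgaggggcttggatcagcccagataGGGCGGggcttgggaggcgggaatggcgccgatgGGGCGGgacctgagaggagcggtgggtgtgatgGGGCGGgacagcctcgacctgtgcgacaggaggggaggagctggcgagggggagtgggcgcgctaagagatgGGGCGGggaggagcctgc
*Acsl5*, chr19:55253119-55253368, plus strand: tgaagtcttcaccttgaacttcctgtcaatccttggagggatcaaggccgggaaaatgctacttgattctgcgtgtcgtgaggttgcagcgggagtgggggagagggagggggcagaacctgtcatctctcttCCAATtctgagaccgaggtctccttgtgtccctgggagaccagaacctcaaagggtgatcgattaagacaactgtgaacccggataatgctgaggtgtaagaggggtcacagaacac
*Slc27a4*, chr2:29802384-29802633, plus strand: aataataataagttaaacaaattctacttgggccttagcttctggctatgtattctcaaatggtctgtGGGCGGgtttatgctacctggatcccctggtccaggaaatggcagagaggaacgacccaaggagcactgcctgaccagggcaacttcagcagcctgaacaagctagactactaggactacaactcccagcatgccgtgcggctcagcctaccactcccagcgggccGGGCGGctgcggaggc
The *Acsbg1* stretch held CCAAT at 2 places and the *Acsl5* stretch at 1, a motif found in 33.8% of the 32851 promoters of this table. The stretch printed for *Acsl1* held GGGCGG at 4 places and the *Slc27a4* stretch at 2, compared with 32.7% of all promoters that held it at least once. The half-site, present in 14.0% of promoters, the TATA box, in 12.4%, and the E-box, in 6.02%, were in none of the 4 stretches, nor was the DR1 site, found in 0.0335%. Such matches are a description of the letters only. RefSeq entries were found for 9 of the 10 genes. *Acsl1* had a second one at a later start (chr8:46490716-46490965), which held 0 of GGGCGG and 2 of CCAAT.

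Levels of all 10 genes across the cell classes with at least 30 cells are drawn in the map of levels by class. 3′ UMI counts were not divided by transcript length, so each gene is compared with itself across classes. The shares of synthetase UMIs given further below are the exception.

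**Figure D1:**
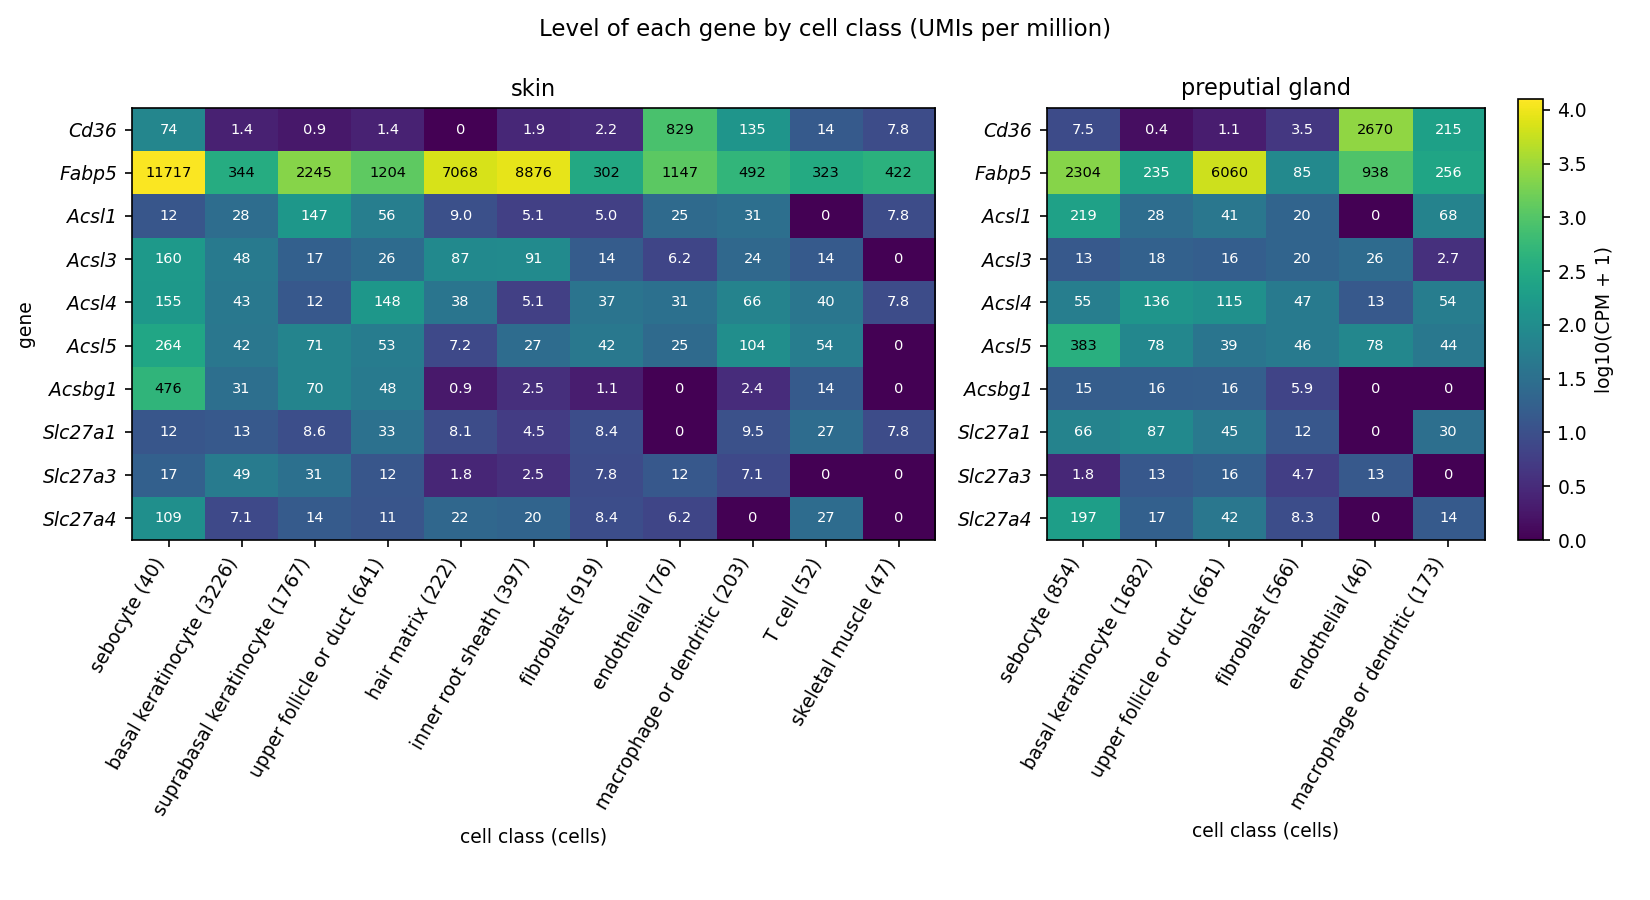
CPM of summed UMIs for each of the 10 genes (rows) in each cell class of at least 30 cells (columns, with the number of cells), for skin on the left and PG on the right, coloured by log10(CPM + 1). *Acsbg1* stands at 476 CPM in sSEB and at 15.0 CPM in pSEB, while *Cd36* is highest in endothelial cells of both tissues.

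*Cd36*, the scavenger receptor that takes up long-chain fatty acids and oxidized lipoproteins, lies on chr5:17781690-17888801 (GRCm38, minus strand). It was foremost an endothelial transcript, at 829 CPM (interval 694 to 983) in skin and 2670 CPM (2317 to 3062) in PG, followed by macrophages and dendritic cells at 135 and 215 CPM. In skin the latter class and sSEB did not differ beyond counting error. Among SEB the level was 74.5 CPM (39.7 to 127) in sSEB, from 13 UMIs in 7 of 40 cells, and 7.52 CPM (5.18 to 10.6) in pSEB, from 33 UMIs in 17 of 854 cells. The log2 ratio of pSEB over sSEB was -3.31 (-4.27 to -2.26). None of the 7 sSEB with a *Cd36* UMI held an endothelial or macrophage marker UMI, whereas 2 of the 17 pSEB held 13 endothelial marker UMIs and 1 held 6 macrophage marker UMIs. Of the other sSEB 6.06% held an endothelial and 21.2% a macrophage marker UMI, and of the other pSEB 0.478% and 6.93%. A single pSEB held 10 of the 33 UMIs, and free RNA would add 2.03 CPM. Taken from clusters in place of gates, the log2 ratio was -0.85. It turned to 0.43 with 222 hair matrix and 397 IRS cells added to the 40 sSEB. These added cells held most of the pooled UMIs, with *Cd36* at 0 and 1.91 CPM. Basal keratinocytes (KC), at 1.38 CPM in skin and 0.417 CPM in PG, and fibroblasts, at 2.23 and 3.54 CPM, were near the floor.

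*Fabp5*, the epidermal fatty acid binding protein, is encoded on chr3:10012548-10016607 (plus strand). Its level was 11717 CPM (11214 to 12236) in sSEB and 2304 CPM (2259 to 2349) in pSEB, a log2 ratio of -2.35 (-2.42 to -2.28). In skin the order ran from sSEB over IRS (8876 CPM), hair matrix (7068 CPM) and suprabasal KC (2245 CPM) to upper follicle KC (1204 CPM), and each step but the one from upper follicle to endothelial cells (1147 CPM) went beyond counting error. In PG the upper follicle or duct class, at 6060 CPM (5967 to 6153), stood above pSEB. The gene was thus lower in SEB of PG than of skin but higher in the duct class of PG, by a log2 of 2.33 (2.27 to 2.39). The first place of sSEB holds for summed UMIs only, since the median cell held 2 UMIs in sSEB, 19 in IRS and 21 in hair matrix. The transcript was unevenly spread, with 1919 of the 2045 UMIs in the 12 late sSEB and 510 in 1 of them. Without these 510 UMIs, over an unchanged class total, the level was 8795 CPM, under that of IRS. With the *Fabp5* UMIs of the highest pSEB left out in the same way (2269 CPM) the log2 ratio was about -2.0. Between clusters the ratio was -0.96. Free RNA would add 67.3 CPM in skin and 63.8 CPM in PG.

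*Acsbg1* codes for a synthetase first known from brain, where it activates long and very long chain fatty acids, and lies on chr9:54604877-54661870 (minus strand). In sSEB it stood at 476 CPM (379 to 590), from 83 UMIs, and in pSEB at 15.0 CPM (11.6 to 19.1), from 66 UMIs. The log2 ratio was -4.98 (-5.47 to -4.50), a 31.6-fold lower level in pSEB. Of the sSEB 55.0% (38.5 to 70.7) held a UMI, compared with 6.56% (4.99 to 8.43) of pSEB, although pSEB were the deeper cells with a median of 4734 UMIs against 3966. With every cell thinned to 1000 UMIs the shares were 29.7% and 1.5%. In fibroblasts, which served as the background, 0.218% of skin cells (median 1773 UMIs) and 0.883% of PG cells (median 1330 UMIs) held a UMI, and free RNA would add 0.501 and 0.262 CPM.

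Within skin the next levels were 69.8 CPM in suprabasal KC, 47.8 CPM in upper follicle KC and 31.0 CPM in basal KC, each step beyond counting error, and the HF classes were almost without it, at 0.896 CPM in hair matrix and 2.54 CPM in IRS. In PG the epithelial classes could not be ordered, with 16.3 CPM in duct cells, 15.6 CPM in basal KC and 15.0 CPM in pSEB. All epithelial classes shared by both tissues had lower levels in PG, with a log2 ratio of -0.99 (-1.38 to -0.61) in basal KC and -1.55 (-2.09 to -1.02) in the upper follicle or duct class. The highest sSEB held 11 UMIs, and the level without these UMIs, over an unchanged class total, was 413 CPM. Split by stage, the levels were 590 against 24.1 CPM in early SEB (log2 ratio -4.62) and 554 against 14.7 CPM in late SEB (-5.23). Since the gene was picked by this contrast, these values describe it only. When the 222 hair matrix and 397 IRS cells were added to the 40 sSEB, the ratio shrank to -1.03. The added cells held 1116085 and 1572841 UMIs, against 174537 of the sSEB, so this value mostly describes HF cells.

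*Acsl1*, a synthetase of the endoplasmic reticulum and the outer mitochondrial membrane with a main part in triglyceride synthesis and oxidation, lies on chr8:46471037-46536051 (plus strand) and had the opposite pattern. It reached 219 CPM (206 to 234) in pSEB, from 963 UMIs in 45.4% of the cells. In sSEB it was almost absent, with 2 UMIs and 11.5 CPM (1.39 to 41.4), and both UMIs came from the 1 cell high in IRS markers, which held 427 UMIs of the IRS gene *Tchh*. The log2 ratio was 4.26 (2.40 to 7.31), without that cell it was at least 3.62, and between clusters it was 5.93. Skin carried the gene in suprabasal KC instead, at 147 CPM (138 to 157), followed by upper follicle KC at 56.4 CPM. Basal KC were alike in level, 28.0 CPM in skin and 27.7 CPM in PG, with a log2 ratio of -0.01 (-0.33 to 0.30). Free RNA in PG would add 7.61 CPM.

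*Acsl3*, a synthetase found on the endoplasmic reticulum and on lipid droplets, lies on chr1:78657825-78707743 (plus strand), where *Utp14b* overlaps it on the same strand, so that reads of the pair may not be told apart. It was at 160 CPM (107 to 232) in sSEB and at 12.8 CPM (9.64 to 16.6) in pSEB, a log2 ratio of -3.65 (-4.33 to -2.94). IRS (90.9 CPM), hair matrix (86.9 CPM) and basal KC (47.8 CPM) followed in skin. In PG no 2 neighbours in the order differed beyond counting error, with basal KC at 17.7 CPM.

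*Acsl4*, which prefers arachidonic acid, lies on chrX:142317993-142390535 (minus strand). It stood at 155 CPM (102 to 225) in sSEB and at 54.7 CPM (48.0 to 62.1) in pSEB, a log2 ratio of -1.50 (-2.08 to -0.87). Upper follicle KC of skin, at 148 CPM, did not differ from sSEB beyond counting error. In PG the order was reversed, with basal KC at 136 CPM (126 to 147) and duct cells at 115 CPM, both above pSEB. When the 222 hair matrix and 397 IRS cells were added to the 40 sSEB, the ratio of pSEB over sSEB turned to 1.01. These added cells held most of the pooled UMIs, with *Acsl4* at 38.5 and 5.09 CPM.

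*Acsl5*, a synthetase of mitochondria and endoplasmic reticulum, lies on chr19:55251938-55297720 (plus strand) and overlaps *Zdhhc6* on the other strand. It was at 264 CPM (193 to 352) in sSEB and 383 CPM (364 to 401) in pSEB, a log2 ratio of 0.54 (0.12 to 0.99) that was 1.07 between clusters. SEB were the highest class in both tissues, with macrophages and dendritic cells next in skin (104 CPM) and endothelial cells (78.2 CPM, 6 UMIs) and basal KC (78.1 CPM) next in PG. Late SEB did not differ by tissue beyond counting error, at 570 CPM in skin and 528 CPM in PG, whereas early SEB were at 65.5 and 180 CPM, a log2 ratio of 1.46 (0.06 to 3.36).

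Of the SLC27 family, *Slc27a4*, the FATP4 protein needed for the epidermal barrier, lies on chr2:29802634-29817522 (plus strand) and was highest in SEB of both tissues. Its level was 109 CPM (65.5 to 170) in sSEB, from 19 UMIs, and 197 CPM (184 to 211) in pSEB. The log2 ratio was 0.86 (0.20 to 1.60) and 1.98 between clusters. Split by stage, it was 0.37 (-0.37 to 1.22) in late SEB and 1.92 (-0.65 to 7.26) in early SEB, the latter with 1 UMI in skin. Neither stage thus differed by tissue beyond counting error. Basal KC were at 7.11 and 17.1 CPM. In skin T cells (26.9 CPM, 2 UMIs), hair matrix (22.4 CPM) and IRS (20.3 CPM) came next, and the step from sSEB to T cells was within counting error. In PG the duct class came next, at 42.0 CPM. pSEB held 80.6% of all *Slc27a4* UMIs of the gated PG cells, and likewise 77.0% of those of *Acsl1* and 75.6% of those of *Acsl5*, whereas their share of all UMIs was 33.1%. In skin, where sSEB held 0.749% of all UMIs, their share was 8.77% for *Acsbg1*, 6.86% for *Slc27a4* and 5.49% for *Cd36*.

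*Slc27a1*, the FATP1 protein of muscle and fat, lies on chr8:71568882-71587302 (plus strand). It was higher in PG, with 66.3 CPM (58.9 to 74.4) in pSEB against 11.5 CPM (1.39 to 41.4, 2 UMIs) in sSEB, a log2 ratio of 2.53 (0.67 to 5.59) that was 0.07 between clusters. The tissues also differed in basal KC, with 87.1 against 13.2 CPM and a log2 ratio of 2.72 (2.42 to 3.03), the class where it was highest in PG. *Slc27a3*, a less studied member with synthetase activity, lies on chr3:90385239-90389938 (minus strand) and was a basal KC gene of skin, at 49.2 CPM there and 31.1 CPM in suprabasal KC. It was scarce in SEB, with 17.2 CPM from 3 UMIs in sSEB and 1.82 CPM from 8 UMIs in pSEB, and the log2 ratio of -3.24 (-5.30 to -0.69) rests on these few UMIs.

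**Figure D2:**
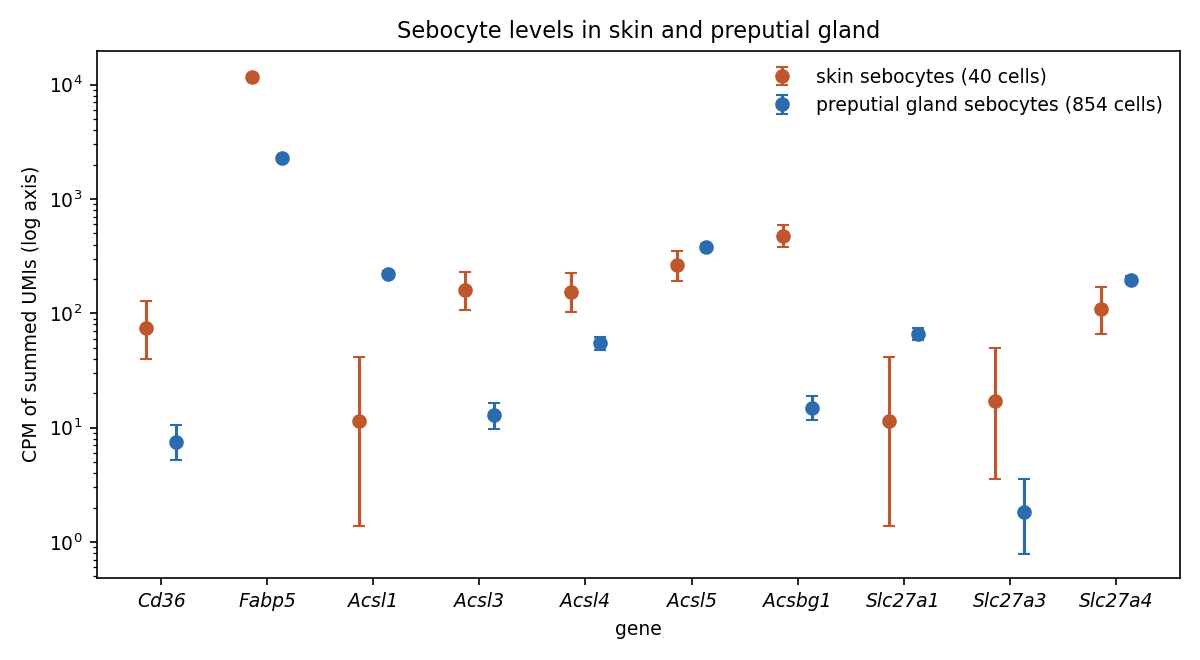
CPM of summed UMIs (log axis) of the 10 genes in the 40 sSEB (orange) and 854 pSEB (blue), with 95% Poisson intervals. *Acsbg1*, *Acsl3*, *Cd36* and *Fabp5* lie higher in sSEB and *Acsl1* and *Slc27a1* in pSEB, while the intervals of *Acsl1*, *Slc27a1* and *Slc27a3* in sSEB rest on 2 or 3 UMIs.

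A difference of at least 2-fold, looked at in genes with at least 10 CPM in either group, was found for 8 of the 10 genes between pSEB and sSEB, 2 higher and 6 lower in pSEB, and all 8 were also beyond counting error. Over all 8402 genes looked at, 40.0% passed this size, 14.7% higher and 25.3% lower, and 21.3% did so beyond counting error, and because the genes were named with this contrast known, nothing is read from the count. The median log2 ratio was -1.92 for the 10 genes and -0.23 for all genes. Relative to that median *Slc27a4* passed 2-fold as well, which gave 9 genes, 3 higher and 6 lower. The share of all genes was not taken relative to the median, so nothing is read from this count. In early SEB alone, with 14 and 132 cells, 5 genes passed (3 higher and 2 lower), with a background of 34.9% (12.3% higher and 22.6% lower). In late SEB alone, with 12 and 198 cells, 7 did (2 higher and 5 lower), with a background of 39.9% (13.2% and 26.8%). Between clusters 6 passed, 3 in each direction, with a background of 47.4% (17.5% and 29.8%).

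The same genes shifted unequally in the other classes. In basal KC 9 genes could be compared, of which *Acsl4*, *Slc27a1* and *Slc27a4* were at least 2-fold higher in PG and *Acsl3* and *Slc27a3* lower, against a background of 32.0% (16.9% higher and 15.1% lower). In the upper follicle or duct class 2 of 9 were higher (*Fabp5* and *Slc27a4*) and 1 lower (*Acsbg1*), with a background of 32.1% (12.8% higher and 19.3% lower). *Slc27a4* was thus higher in PG in basal KC, by a log2 of 1.26 (0.77 to 1.76), and in the upper follicle or duct class, by 1.92 (1.26 to 2.63). In endothelial cells, 76 of skin and 46 of PG, 2 of 4 genes were higher in PG and 1 lower, with a background of 37.3% (21.6% higher and 15.7% lower). Of these *Cd36* was the gene beyond counting error, higher by a log2 of 1.69 (1.36 to 2.01). In macrophages and dendritic cells 2 of 8 were higher and 2 lower, with a background of 37.5% (14.9% higher and 22.5% lower), among them *Acsl1* at 68.0 against 30.8 CPM and *Acsl5* at 43.5 against 104 CPM. In fibroblasts 1 of 6 was higher and 1 lower, with a background of 21.1% (11.8% higher and 9.26% lower). The former was *Acsl1*, at 20.1 against 5.01 CPM, where free RNA would add 7.61 CPM in PG, and the latter *Fabp5*, at 85.1 against 302 CPM, where free RNA would add 63.8 CPM.

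Which synthetases make up the SEB pool was looked at by adding the UMIs of the 8 synthetase genes. The summed level was 1203 CPM in sSEB and 950 CPM in pSEB, both above basal KC at 261 and 392 CPM. The sum in sSEB includes *Acsbg1* at 476 CPM, picked for its high level there and its low level in pSEB. Nothing is therefore read from the order of these sums by tissue. In sSEB *Acsbg1* gave 39.5% of these UMIs (32.9 to 46.5), *Acsl5* 21.9%, *Acsl3* 13.3%, *Acsl4* 12.9%, *Slc27a4* 9.05% and *Acsl1* 0.952%. In pSEB *Acsl5* gave 40.3% (38.8 to 41.8), *Acsl1* 23.1%, *Slc27a4* 20.8%, *Slc27a1* 6.98%, *Acsl4* 5.76%, *Acsbg1* 1.58% and *Acsl3* 1.34%. The shares are of UMIs and were not corrected for how well each transcript is captured. Of the 8 genes the one with the most UMIs was *Acsbg1* in sSEB and *Acsl5* in pSEB, followed by *Acsl5* and *Acsl1*, respectively. As *Acsbg1* was picked by this contrast, its place is a description only. Its UMIs also lower the shares of the other genes in sSEB. In late sSEB alone *Acsl5* (35 UMIs) and *Acsbg1* (34 UMIs) were level.

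**Figure D3:**
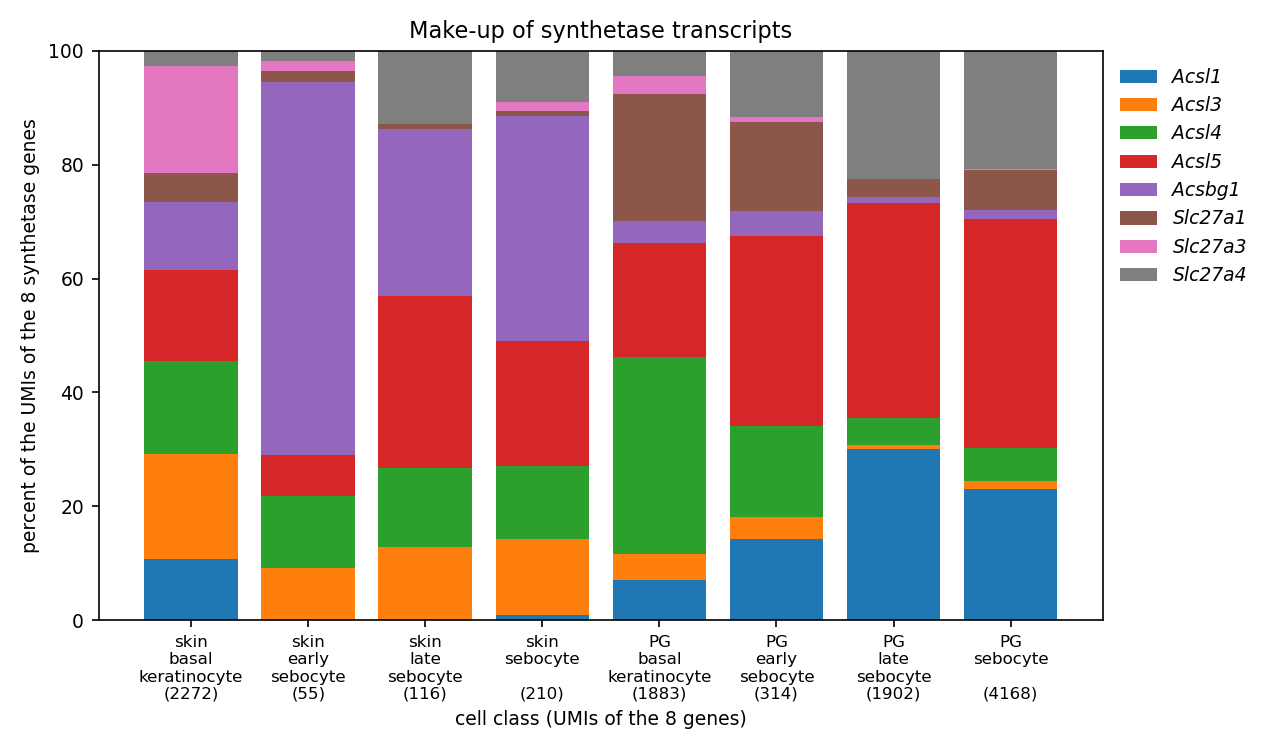
Percent of the UMIs of the 8 synthetase genes that came from each gene (stacked, summing to 100%), by tissue and class, with the number of UMIs of the 8 genes below each bar. *Acsbg1* takes 65.5% in early and 29.3% in late sSEB, where *Acsl5* takes 30.2%, and *Acsl5* with *Acsl1* takes the largest part in late pSEB (37.7% and 30.1%). *Acsbg1* was picked for its high level in sSEB and low level in pSEB.

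Compared with basal KC of the same library, 7 of 10 genes were at least 2-fold higher in sSEB and 2 lower, with a background of 36.8% over 8718 genes (21.8% higher and 15.0% lower). *Cd36* (log2 ratio 5.76), *Fabp5* (5.09), *Acsbg1* (3.94), *Slc27a4* (3.94), *Acsl5* (2.66), *Acsl4* (1.86) and *Acsl3* (1.75) were higher, and the 2 lower genes, *Acsl1* (-1.29) and *Slc27a3* (-1.52), had intervals that hold 0. The median was 2.26 for the 10 genes and 0.20 for all. In PG 9 genes could be compared, of which 4 were higher in pSEB and 2 lower, with a background of 19.8% over 8193 genes (6.66% higher and 13.1% lower). *Slc27a4* (3.53), *Fabp5* (3.29), *Acsl1* (2.99) and *Acsl5* (2.29) were higher, and *Acsl4* (-1.32) and *Slc27a3* (-2.80) lower. The median was -0.06, compared with -0.12 for all genes. *Acsbg1* was picked for its high level in sSEB, and the other genes were named with earlier results known. Nothing is therefore read from these counts and medians.

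*Fabp5*, *Slc27a4* and *Acsl5* were therefore higher in SEB than in basal KC of both tissues. *Acsbg1* and *Acsl3* were higher in SEB of skin, while their ratios in PG were -0.06 (-0.55 to 0.44) and -0.47 (-0.99 to 0.03). *Acsl4* had opposite directions, with 1.86 (1.24 to 2.42) in skin and -1.32 (-1.54 to -1.10) in PG.

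**Figure D4:**
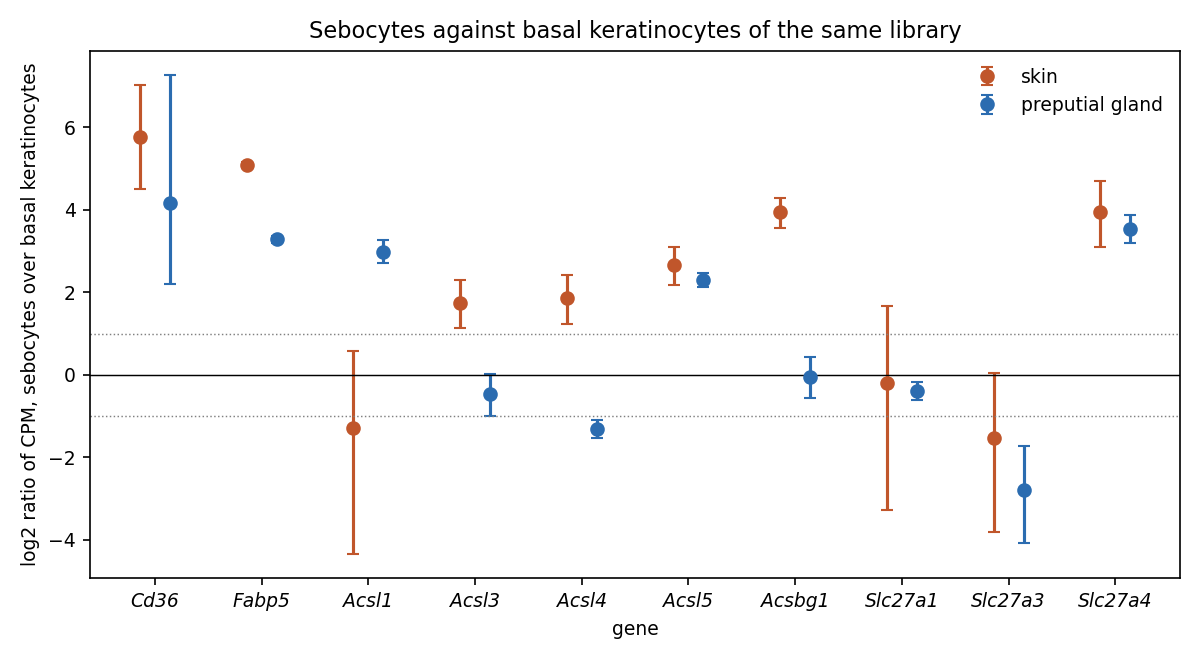
Log2 ratio of CPM in SEB over basal KC of the same library for the 10 genes, in skin (orange) and PG (blue), with 95% intervals from counting error, and dotted lines at 2-fold. *Acsl4* lies above 0 in skin and below 0 in PG. *Acsbg1*, which was picked for its high level in sSEB and low level in pSEB, lies at 3.94 in skin and -0.06 in PG.

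SEB were also divided by stage. Early SEB held at least 3 of the 4 markers *Krt5*, *Krt14*, *Krt15* and *Col17a1*, which are KC genes of the basal layer, and late SEB held at least 2 of the lipid genes *Awat2*, *Elovl3*, *Soat1* and *Cidea* without being early. PG had 132 early and 198 late pSEB, while 524 were neither, and the late cells were deeper, with a median of 7064 against 3694 UMIs. The clusters named as SEB held 2 of the 132 early and 124 of the 198 late pSEB. SEB markers held a median of 0.324% of the UMIs of an early and 1.38% of a late cell, so early pSEB rest on the gate. In late pSEB 5 genes were at least 2-fold higher and 1 lower of the 9 compared, with a background of 31.3% over 8202 genes (7.91% higher and 23.4% lower). *Fabp5* went from 539 to 4838 CPM (log2 ratio 3.16), *Acsl1* from 77.3 to 421 CPM (2.44), *Slc27a4* from 61.9 to 315 CPM (2.35) and *Acsl5* from 180 to 528 CPM (1.55). *Cd36* went from 1.72 CPM (1 UMI) to 17.7 CPM (24 UMIs), a log2 ratio of 3.36 (0.75 to 8.72), where free RNA would add 2.03 CPM. The lower gene was *Acsl3*, at 20.6 and 9.57 CPM, with an interval of -2.36 to 0.15, and *Slc27a1* was lower by less than 2-fold (-0.91, interval -1.47 to -0.33). The pSEB that were neither early nor late lay between both for *Acsl1* (141 CPM), *Slc27a4* (164 CPM), *Acsl5* (350 CPM) and *Fabp5* (1316 CPM). With clusters in place of gates, more of the genes were lower than higher in late pSEB, as given in the closing section. The share of all genes was not taken for that comparison, so nothing is read from its direction.

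Skin had 14 early and 12 late sSEB, fewer than the 30 cells asked of a class, so these values rest on few cells. *Fabp5* stood at 999 CPM in early and 31244 CPM in late sSEB, and each of the 12 late cells held between 34 and 510 of its UMIs. All 13 *Cd36* UMIs were in late cells, in 7 of 12. *Acsl5* was at 65.5 and 570 CPM, *Slc27a4* at 16.4 and 244 CPM, *Acsl3* at 81.9 and 244 CPM, and *Acsl4* at 115 and 261 CPM, of which the last pair did not differ beyond counting error. *Acsbg1* was at 590 CPM in early and 554 CPM in late sSEB, with a log2 ratio of -0.09 (-0.81 to 0.63), and 12 of the 14 early cells held it. Of 7 genes compared 6 were at least 2-fold higher in late sSEB, against a background of 47.2% (19.2% higher and 28.0% lower).

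**Figure D5:**
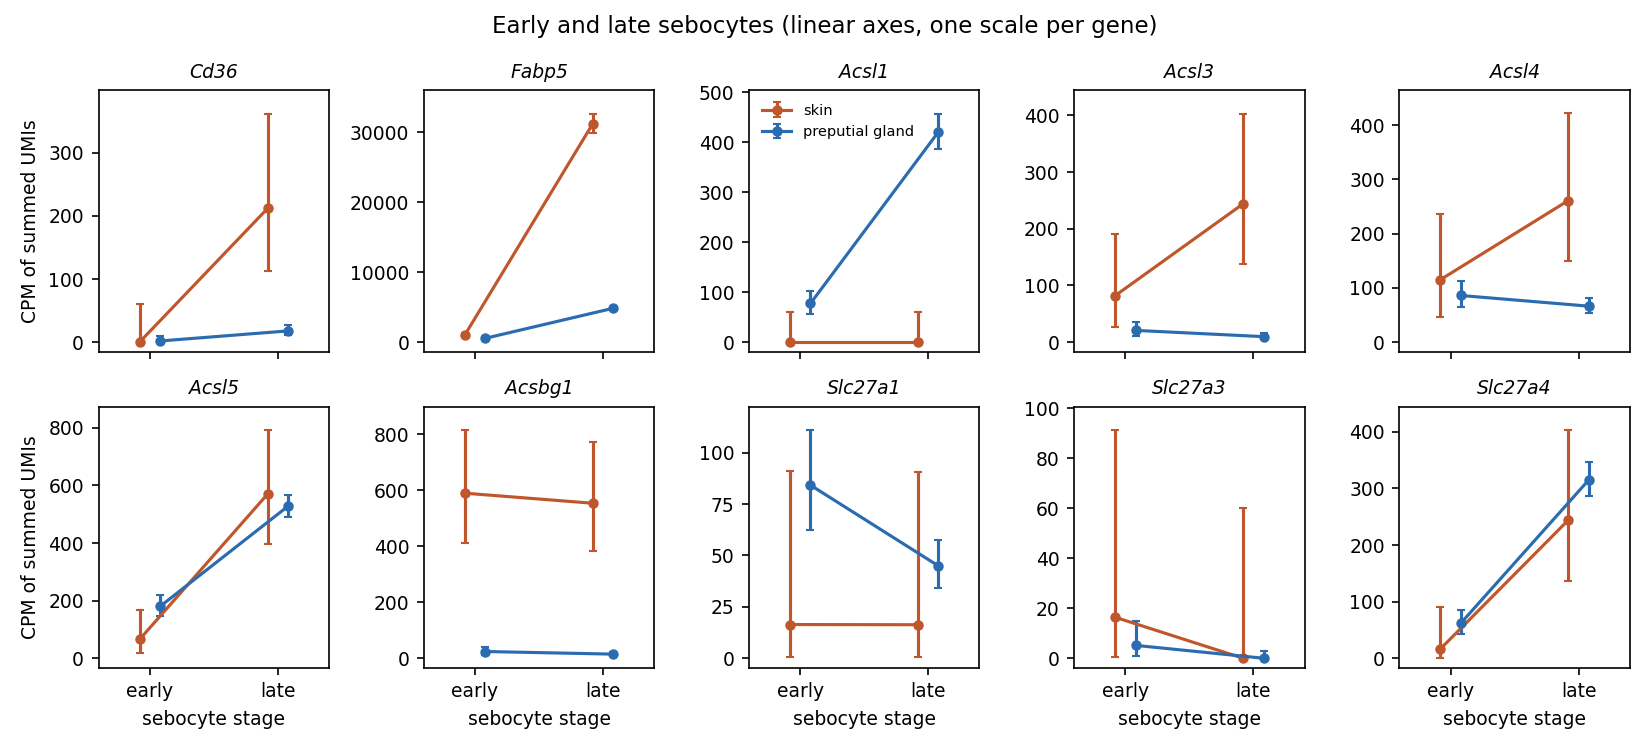
CPM of summed UMIs in early and late SEB of skin (14 and 12 cells, orange) and PG (132 and 198 cells, blue), 1 panel per gene with its own linear axis, with 95% Poisson intervals. *Fabp5*, *Acsl5*, *Slc27a4* and *Cd36* lie higher in late SEB of both tissues, *Acsl1* in late pSEB, and *Acsbg1* stays near the same level in sSEB. Early SEB held 0 *Cd36* UMIs in skin and 1 in PG.

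Other genes of the pathway were taken from 4 lists. Of 17 further acyl-CoA synthetases, 16 were in the files and 3 could be compared between pSEB and sSEB, and all 3 were at least 2-fold lower in pSEB. The share of all genes in this and the next 3 counts was 14.7% for higher and 25.3% for lower levels in pSEB, and with so few genes per list nothing is read from them. *Acss2*, which activates acetate, was at 30.3 against 327 CPM (log2 ratio -3.43), *Aacs*, which activates acetoacetate, at 13.2 against 115 CPM (-3.12), and *Acsf2* at 0 against 34.4 CPM. In each tissue *Acss2* and *Aacs* were nevertheless at least 2-fold higher in SEB than in basal KC, by 5.69 and 4.24 in skin and by 2.86 and 1.82 in PG.

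Of 13 other genes of fatty acid binding and uptake 5 could be compared, with 0 higher and 1 lower in pSEB. This was *Fabp4*, the binding protein of fat and endothelial cells, at 22.1 against 659 CPM (-4.90), where 3 of 40 sSEB held all 115 UMIs. A single sSEB held 96 of these and a single early pSEB 77 of the 97 in PG. Without these UMIs, over unchanged class totals, the levels were 109 CPM in sSEB and 4.56 CPM in pSEB. *Cav1*, *Cavin1*, *Got2* and *Scarb1* had log2 ratios whose intervals hold 0, the highest level being that of *Got2* (120 and 97.4 CPM). In PG *Fabp4* was at 143 CPM in early and 0.736 CPM in late pSEB. Of 7 genes of lipoprotein lipolysis and uptake 5 could be compared, with 2 higher and 1 lower. *Lpl*, the lipase that frees fatty acids from lipoproteins, was at 221 CPM in pSEB and 91.7 CPM in sSEB (1.27), its inhibitor *Angptl4* at 134 and 63.0 CPM (1.09), and *Lrp1* at 8.20 and 68.8 CPM (-3.07). In late pSEB *Lpl* was higher than in early pSEB, at 427 against 92.8 CPM. Of 14 thioesterases, which split acyl-CoA again, 8 could be compared, with 1 higher (*Acot7*, 1.96) and 1 lower (*Acot9*, -3.17) in pSEB, and the cytosolic *Acot1* was at 199 and 103 CPM (0.95). Median log2 ratios were -3.43, -0.35, -0.26 and 0.49 for the 4 lists in this order, beside -0.23 for all genes.

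The genes with the most similar pattern were sought by Pearson correlation of log2(CPM + 10) over the 17 classes of both tissues, among 14074 genes. These values are a description, since classes share a library and depth. For *Cd36* the closest were *Pde2a* (r = 0.971), *Cd93* (0.949) and *Kcne3* (0.945), each highest in PG endothelial cells. *Kcne3* stood there at 13.0 CPM, which is the level of 1 UMI in this class. *Slc27a4* was closest to *Apmap* (0.911), *Acaa1a* (0.889) and *Pex16* (0.888), *Acsl5* to *Cat* (0.859), *Psme2* (0.855) and *Secisbp2l* (0.845), and *Acsl1* to *Gpld1* (0.799), *Mboat2* (0.763) and 4833423E24Rik (0.762). *Acsl3* was closest to *Tex10* (0.893), *Cct3* (0.890) and *Pms1* (0.888), *Acsl4* to *Itgb8* (0.80), *Pts* (0.799) and Gm35572 (0.789), and *Fabp5* to *Psmb2* (0.834), *Bpifc* (0.821) and *Aldh3b2* (0.808). *Slc27a1* was closest to *Naa80* (0.875), *B4galnt1* (0.838) and *Sardh* (0.817), and *Slc27a3* to *Gnai1* (0.814), *Fam110c* (0.805) and *Dst* (0.804). The 3 closest to *Acsbg1*, AI429214 (0.885), 1700018L02Rik (0.868) and Gm32817 (0.867), reached 11.5 to 22.9 CPM in sSEB, which is a few UMIs. The same holds for *Pms1*, at 17.2 CPM in sSEB. Among the 10 genes themselves the closest pair was *Acsl4* with *Slc27a1* (r = 0.65).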

How the data were processed

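Single cells of back skin and of PG were sequenced as 1 library each, from 3 pooled male mice per tissue. The authors deposited raw UMI counts per gene and barcode, made with Cell Ranger (version 4 in the matrix header) on mm10, which has the coordinates of GRCm38, and empty barcodes are included. Of the 32285 gene identifiers 32158 were found in GENCODE M21, which gave the gene positions. The 10 genes, the pathway lists and the markers were chosen with earlier results of these data known, and the thresholds of the marker gates were set after the marker counts were seen.

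UMIs were summed per class and divided by the total of the class to give CPM, with exact Poisson intervals. Log2 ratios carry exact binomial intervals, a count of 0 was set to 3 counts, and no ratio is given where the other level lay under that limit. A gene was called at 2-fold or more with at least 10 CPM in either group and more than 3 UMIs in one. Intervals cover counting error only. Named genes were the 10, the list members with at least 10 CPM in SEB, and the 3 genes closest in pattern. The values of 1 list member are not reported here. Doublets were handled by leaving out cells of mixed gates, and by a doublet score as an alternative that removed 0.8% per 1000 cells. Free RNA was read from barcodes with at most 100 UMIs, and its share, 2.23% in skin and 3.96% in PG, from markers of foreign cells. Python 3.11.15 with scipy 1.17.1, scikit-learn 1.9.0 and leidenalg 0.10.2 was used, and the code was tested on simulated data. 12 alternatives were planned and 6 were added after the data were seen.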

Additional observations from a re-analysis of the deposited data

Results flagged for a closer look

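*Acsl4* was set apart because SEB and basal KC stood in opposite order in the 2 tissues, with a log2 ratio of SEB over basal KC of 1.86 in skin and -1.32 in PG. Both intervals exclude 0 by counting error, yet with 1 library per tissue the difference between tissues was not tested. The SEB of skin rest on 27 UMIs of *Acsl4* and those of PG on 240.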

How the results depend on the processing

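The *Acsbg1* log2 ratio of pSEB over sSEB lay between -5.78 and -1.03 over 18 alternatives, a sign that the choice of the gene had fixed, and that of *Fabp5* between -2.72 and -0.89, outside its own interval in 14 of 18. *Acsbg1* was -5.78 in the cells that gates and clusters both named, and -1.03 with hair matrix and IRS cells added to the sSEB. In the latter alternative, where the added cells held most of the UMIs, *Acsl4* turned to 1.01 and *Cd36* to 0.43. In late SEB alone *Acsl5* turned to -0.11. The number of genes past 2-fold lay between 5 and 9 (8 in the values reported), with 5 in early SEB alone. It was 8 to 10 for sSEB over basal KC, 6 to 8 for pSEB over basal KC and 4 to 7 for late over early pSEB. Among the alternatives, shares of all genes were taken only for the early, late and cluster ratios between tissues. Nothing is read from these ranges. With clusters in place of gates (59 sSEB and 183 pSEB) 6 genes passed, 3 higher and 3 lower, and late over early pSEB gave 2 higher and 3 lower. For the latter count the share of all genes was not taken, and nothing is read from it. The clusters were made at a resolution of 4.0, since at 2.0 no skin cluster was named SEB. The centred, free RNA and hair matrix alternatives were run on the comparison between tissues only. No paired analysis was possible because each tissue has 1 library. The 40 sSEB limit the depth, since a gene at 0 there could still be at 17.2 CPM.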
